A study of Mus musculus with 8 samples.

Results

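The 10 genes described here encode secreted factors of the TGF-β superfamily, the proteins that bind them, and 1 receptor. They are *Bmp2*, *Bmp4*, *Bmp7*, *Inhba*, *Inhbb* and *Gdf15* (ligands or ligand subunits), *Fst*, *Fstl3* and *Nog* (antagonists) and *Bmpr2* (receptor), and they were taken by symbol from a table of 37310 genes. Reads were counted in 8 RNA-seq libraries of NMuMG, a mouse line of epithelial cells from healthy mammary tissue, in 4 groups of 2 biological replicates. Control cells and cells labelled knockout (KO) were left untreated or received 10 ng/ml of TGF-β1 for 2 h, all in medium with serum and insulin; whether untreated cells received the carrier of TGF-β1 is not given in the sources used here. In the KO cells, CRISPR-Cas9 had removed a stretch across the promoter and first exon of the long non-coding RNA gene *Lnc-Nr6a1*, listed as *Gm13507* in the counts, and the cells had been grown up from single sorted cells. The labels name no clone, so an effect of the deletion and a property of the clone cannot be told apart. The comparisons ask how these genes differ between the genotypes, how they respond early to TGF-β, and whether that response differs between the genotypes.

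BMPs and activins are dimers that bind a pair of type II and a pair of type I serine/threonine kinase receptors. BMP receptors phosphorylate SMAD1, SMAD5 and SMAD9, whereas activin receptors phosphorylate SMAD2 and SMAD3, the same SMADs that TGF-β uses. Antagonists act outside the cell by covering the receptor contacts of the ligand: noggin holds BMPs, and follistatin holds activins almost irreversibly. In the mammary gland, these ligands take part in the growth and branching of the ducts, and in NMuMG cells TGF-β starts the epithelial-to-mesenchymal transition.

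Of the 10 genes, 7 had enough counts to be tested, and 4 of the 7 changed after TGF-β in each genotype, where 9.16% of all genes were called in controls and 6.82% in KO-labelled libraries. Without a filter on low counts, 6 of these 7 were called in controls and 7 in KO-labelled libraries, against 9.88% and 8.95% of 20463 genes. *Bmp2* and *Inhba* were added in both, and *Inhbb* in KO-labelled libraries, while *Bmp7*, *Fstl3* and *Nog* stayed uncalled. The values of *Bmp2*, and of *Inhba* in KO-labelled libraries, depend on 1 treated library. *Bmp4* and *Gdf15* fell while *Fst* and *Bmpr2* rose, in both genotypes. Between genotypes, 2 of the 7 differed, both in untreated and in treated cells, where 1.83% and 15.0% of all genes were called: *Inhbb*, the activin βB subunit, and *Fst*, the follistatin gene, were lower in KO-labelled libraries. In untreated cells, *Inhbb* was 45.9-fold lower by summed counts (95% counting interval 15.5 to 224) and *Fst* was 11.2-fold lower in the fit (95% interval 6.50 to 19.3). *Bmp7*, *Fstl3* and *Nog* were near the limit of detection in every group.

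Library totals ranged from 4297832 to 13574397 counts and were higher in each of the 4 treated libraries (at least 9895118) than in the 4 untreated ones (at most 7871090). A chosen floor of 3 counts a library lay between 0.238 and 0.661 CPM (counts relative to the library total, adjusted with edgeR's TMM factors). This floor covers counting error only. *Gm13507* had 3 and 14 counts in untreated controls and 11 and 7 in the untreated KO-labelled libraries, so the targeted gene did not separate those libraries by label. The paper and the labels differ on whether mRNA or total RNA was sequenced, so which transcripts of *Gm13507* these counts cover is not settled. After TGF-β it had 25 and 35 counts in controls and 0 in both KO-labelled libraries. Since the untreated label could not be checked with the targeted gene, each genotype difference below is one between KO-labelled libraries and control. *Inhbb* and *Fst*, whose values are given below, separated the untreated libraries by label in the same direction as the treated ones, in which *Gm13507* was at 0 counts under the KO label; both genes are results here and not a check of the labels. Of 8 epithelial markers, *Cldn7* had no count in any library and *Epcam* 2 counts in 1 library, and their summed level was 5873 to 6970 CPM in untreated and 7939 to 10940 CPM in treated libraries. Of the 6 epithelial markers tested, 2 were called higher after TGF-β in controls and 1 was called higher in KO-labelled libraries between treated genotypes; the part of these markers in the results was not tested. The summed levels of the fibroblast, endothelial and leukocyte markers were at most 4.73, 0.847 and 5.45 CPM. That of 4 myoepithelial markers was 2.42 to 5.67 CPM in untreated and 23.9 to 42.0 CPM in treated libraries. Nearly all of it was *Krt14*, a keratin gene and the only one of the 4 to pass the filter, named after its values were seen (means of 4.91 and 24.8 CPM in untreated and treated controls, 2.54 and 32.4 CPM in KO-labelled libraries). *Krt5*, *Acta2* and *Trp63* had at most 0.715 CPM in any library; the part of *Krt14* in the results was not tested. In bulk RNA, fewer cells that express a gene and less RNA of that gene per cell cannot be told apart.

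A model of the 4 groups was fitted with edgeR's quasi-likelihood test over 13028 genes. A gene was called when the Benjamini-Hochberg adjusted p was below 0.05 and the absolute log2 fold change above 0.5. Among all genes tested, 1.83% were called between untreated genotypes, 15.0% between treated genotypes, 9.16% after TGF-β in controls and 6.82% after TGF-β in KO-labelled libraries. Of the 7 tested members, 2, 2, 4 and 4 were called in these comparisons, in that order. The 2 called between genotypes were lower in KO-labelled libraries, where 0.798% (untreated) and 6.57% (treated) of all genes were called lower. After TGF-β, 2 members rose and 2 fell in each genotype, where 4.69% and 4.47% of all genes rose and fell in controls and 4.25% and 2.57% did so in KO-labelled libraries. With 2 libraries a group, values without overlap are common: in the same 4 comparisons, 51.9%, 55.8%, 53.7% and 56.6% of all genes tested had groups that did not overlap.

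**Figure D1:**
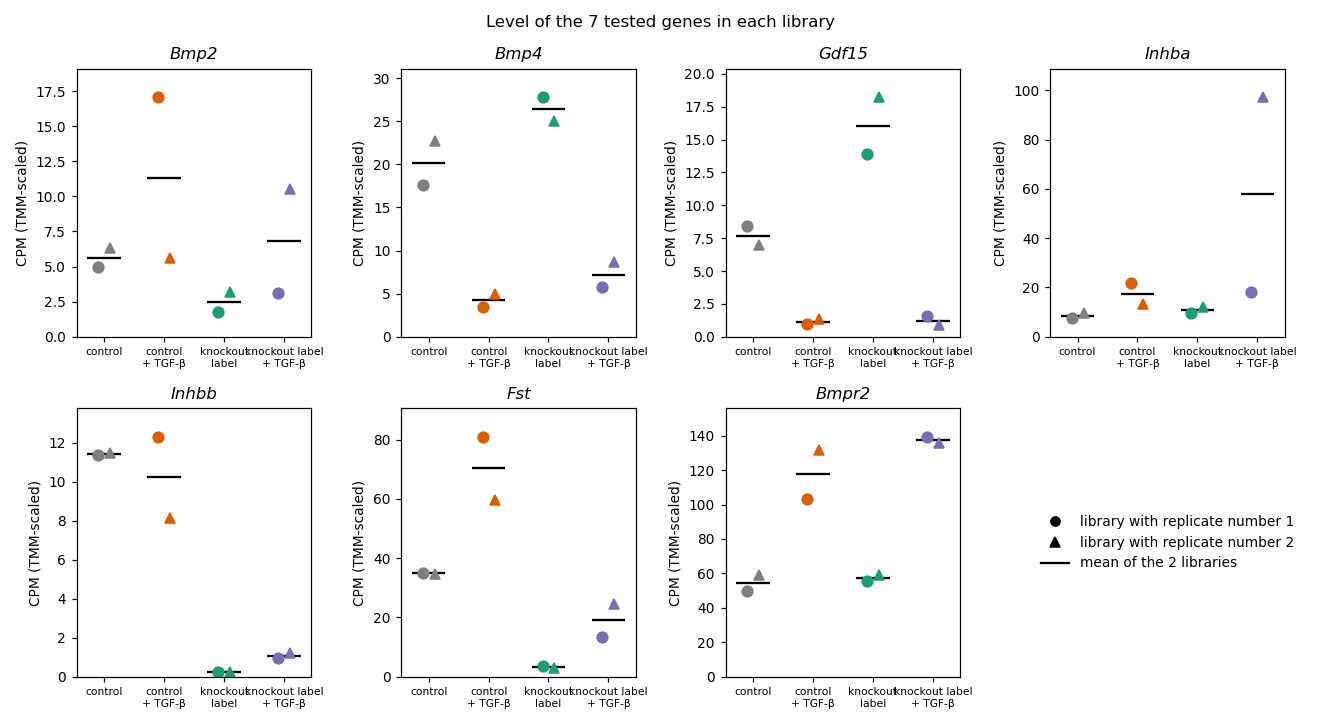
Level of each of the 7 tested genes in each library, in CPM on linear axes that start at 0; circles are libraries numbered 1, triangles those numbered 2, and bars the mean of the 2 libraries of a group. *Bmp4* and *Gdf15* sit lower and *Bmpr2* and *Fst* higher after TGF-β in both genotypes, while *Inhbb* and *Fst* sit lower in KO-labelled libraries.

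The promoters of the genes on which the results turn are shown as sequence, 250 bases up to the annotated start, 5′ to 3′ on the strand of the gene. They come from RefSeq on GRCm38.p6, in which 6 of the 10 genes were matched by symbol; *Bmp2*, *Bmp7*, *Fst* and *Nog* were not matched. *Bmp4* and *Gdf15* are shown because they fell after TGF-β, *Bmpr2* because it rose, and *Inhbb* because it differed most between genotypes. Capitals mark GGCGCC, the only one of the motifs named below that these 4 windows hold.
*Bmp4* (chr14:46390670-46390919, minus strand): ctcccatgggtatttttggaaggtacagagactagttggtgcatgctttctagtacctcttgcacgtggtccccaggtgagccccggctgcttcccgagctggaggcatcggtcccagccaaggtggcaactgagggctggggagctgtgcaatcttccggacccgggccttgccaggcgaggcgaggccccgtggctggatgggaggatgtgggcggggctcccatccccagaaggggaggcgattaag
*Gdf15* (chr8:70632457-70632706, minus strand, upstream one of 2 annotated starts): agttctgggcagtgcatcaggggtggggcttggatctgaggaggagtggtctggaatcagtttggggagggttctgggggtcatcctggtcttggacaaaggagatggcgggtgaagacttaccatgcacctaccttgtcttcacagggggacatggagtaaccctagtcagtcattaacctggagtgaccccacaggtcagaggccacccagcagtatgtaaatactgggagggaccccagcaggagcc
*Bmpr2* (chr1:59764029-59764278, plus strand): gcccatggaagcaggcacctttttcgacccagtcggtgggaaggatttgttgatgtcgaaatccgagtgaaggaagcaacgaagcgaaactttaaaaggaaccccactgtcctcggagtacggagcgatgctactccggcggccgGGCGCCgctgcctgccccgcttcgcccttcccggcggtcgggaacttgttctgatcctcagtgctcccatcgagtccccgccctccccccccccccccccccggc
*Inhbb* (chr1:119422249-119422498, minus strand): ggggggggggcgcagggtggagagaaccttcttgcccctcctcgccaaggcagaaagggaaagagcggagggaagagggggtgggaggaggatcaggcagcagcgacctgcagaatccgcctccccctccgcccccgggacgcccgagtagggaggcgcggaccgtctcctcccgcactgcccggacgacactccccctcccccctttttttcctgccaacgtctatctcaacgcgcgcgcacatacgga

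These 4 windows were richer in G and C, at 63.2%, 56.4%, 64.0% and 68.0% in the order shown, than the median of 52.4% over 32851 windows of the same length. Of the other matched genes, the window of *Inhba* had 43.2% and that of *Fstl3*, which did not pass the filter on low counts, 71.2%. On both strands, 4 motifs were searched, none of which contains another: CAGACA, part of the SMAD box, GGCGCC, the GC-rich SMAD1 and SMAD5 element, TGANTCA, the AP-1 site, and TGACG, part of the cAMP response element. Over all windows, 17.1% held CAGACA, 9.59% GGCGCC, 6.75% TGANTCA and 17.8% TGACG. Among the 7 windows of the 6 matched genes, GGCGCC was found only in *Bmpr2*, 105 to 100 bases before the start, and CAGACA only in *Fstl3*, 162 to 157 bases before it. A match of letters is a description of the window, and none of these windows was measured for binding.

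*Bmp4*, a BMP ligand that drives SMAD1 and SMAD5 signalling, lies on chromosome 14 (mm9 47003195-47010344, minus strand). In untreated controls it had 17.6 and 22.7 CPM, and in treated controls 3.47 and 4.97 CPM. In KO-labelled libraries it had 27.8 and 25.0 CPM untreated and 5.79 and 8.66 CPM treated. Every treated library was thus below every untreated one. *Bmp4* fell by 2.26 on the log2 scale in controls (SE 0.30, edgeR adjusted p = 0.00304) and by 1.86 in KO-labelled libraries (SE 0.28, edgeR adjusted p = 0.00565), or 4.78-fold and 3.64-fold. The call in KO-labelled libraries was lost without untreated KO replicate 1 (edgeR adjusted p = 0.0571). Both KO-labelled libraries lay above both controls before and after TGF-β, by 0.39 (SE 0.27, edgeR adjusted p = 0.559) and 0.78 (SE 0.30, edgeR adjusted p = 0.111), and neither difference was called. The antisense gene *Gm15222*, which lies within *Bmp4*, had 1 to 10 counts a library, and *Gm15217*, which overlaps an exon of *Bmp4* on the other strand, had 0.

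*Bmp2*, a close relative of *Bmp4* that acts through the same receptors, lies on chromosome 2 (mm9 133377895-133388621, plus strand). Its level was 4.95 and 6.35 CPM in controls and 17.1 and 5.61 CPM in treated controls. In KO-labelled libraries it was 1.76 and 3.19 CPM untreated and 3.10 and 10.5 CPM treated. After TGF-β, 1 library of each genotype was therefore high and the other lay within the range of the untreated ones. The 2 treated libraries differed 3.04-fold in control and 3.39-fold in KO cells, ratios reached between replicates by 2.79% and 0.959% of the tested genes of those groups. *Bmp2* was called in no comparison with the filter on low counts; without it, edgeR called it higher after TGF-β in controls (adjusted p = 0.0452) and in KO-labelled libraries (adjusted p = 0.00506). The log2 difference after TGF-β was 1.01 in controls (95% interval -0.39 to 2.41, edgeR adjusted p = 0.332) and 1.40 in KO-labelled libraries (-0.18 to 2.98, edgeR adjusted p = 0.275). Without treated control replicate 1 the value in controls was -0.024, and without treated KO replicate 2 the value in KO-labelled libraries was 0.30. Untreated, both KO-labelled libraries lay below both controls, with a log2 difference of -1.13 (95% interval -2.75 to 0.49, edgeR adjusted p = 0.514).

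Within a library, the balance of these BMP ligands moved with TGF-β. There were 3.56 and 3.58 counts of *Bmp4* per count of *Bmp2* in untreated controls and 0.203 and 0.887 in treated ones. The KO-labelled libraries had 15.8 and 7.83 untreated and 1.87 and 0.826 treated. Such a ratio needs no scaling of libraries, and in each genotype the treated libraries lay below the untreated ones. *Bmp7*, the remaining BMP ligand (mm9 chromosome 2, 172693513-172765822, minus strand), had 16 counts over the 8 libraries and at most 6 in 1 of them, all 4 groups having at least 1 library at 2 counts or fewer. It did not pass the filter on low counts, and no difference in it was detectable at this depth.

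*Inhba* encodes the βA subunit, which forms activin A as a homodimer and activin AB with βB, and lies on chromosome 13 (mm9 16103684-16119044, plus strand). Its level was 7.48 and 9.76 CPM in controls and 9.48 and 12.1 CPM in KO-labelled libraries. After TGF-β it was 21.6 and 13.2 CPM in controls and 18.3 and 97.1 CPM in KO-labelled libraries. All 4 treated libraries were above all 4 untreated ones, and 1 treated library, KO replicate 2, was far above the rest. The 5.30-fold ratio between the treated KO replicates was matched or exceeded by 0.315% of the tested genes. *Inhba* was not called after TGF-β, at a log2 difference of 1.02 in controls (SE 0.64, edgeR adjusted p = 0.341) and 2.40 in KO-labelled libraries (SE 0.64, edgeR adjusted p = 0.0564). Without treated KO replicate 2 the latter was 0.78 (edgeR adjusted p = 0.362), and without treated KO replicate 1 it was 3.18 and called (edgeR adjusted p = 0.000703). Leaving out treated control replicate 1 or 2 also gave a call there (edgeR adjusted p = 0.0378 and 0.0371), as did edgeR without the filter, which also called the rise in controls (adjusted p = 0.00218), DESeq2 (adjusted p = 0.0412) and edgeR on counts thinned to the smallest total (adjusted p = 0.0277). Between treated genotypes the log2 difference was 1.72 (SE 0.60, edgeR adjusted p = 0.0834). It was 2.48 without treated KO replicate 1 and 0.08 without replicate 2. Without the filter it was called (edgeR adjusted p = 1.2e-10). *Inhba* passed the filter, so its own counts are the same in both fits, and only the other genes fitted with it differ. Why its adjusted p moved was not tested. Counts of the claudin gene *Cldn4*, an epithelial marker, were high in the same libraries as *Bmp2* after TGF-β, at 126 against 13 in controls and 162 against 30 in KO-labelled libraries, with replicate 1 the higher in controls and replicate 2 in KO-labelled ones; whether this moved *Inhba* was not tested. Untreated, the groups overlapped, with a log2 difference of 0.34 (95% interval -1.18 to 1.86).

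*Inhbb* encodes the βB subunit of activin B and activin AB and lies on chromosome 1 (mm9 121312042-121318825, minus strand). In untreated cells it had 94 counts in each control library and 1 and 2 counts in KO-labelled libraries, or 11.3 and 11.5 CPM against 0.220 and 0.266 CPM. Both of the latter were below the level of 3 counts. After TGF-β it had 131 and 77 counts in controls and 12 and 15 in KO-labelled libraries, or 12.3 and 8.15 CPM against 0.978 and 1.19 CPM. The genotypes did not overlap in either condition. *Inhbb* was called lower in KO-labelled libraries both untreated (log2 difference -5.45, SE 0.50, edgeR adjusted p = 0.00114) and treated (-3.22, SE 0.36, edgeR adjusted p = 0.00117). Because the untreated KO-labelled libraries held 3 counts in all, against 188 in controls, the fitted value depends on the prior count, and the ratio of summed counts was 45.9 with a counting interval of 15.5 to 224. After TGF-β, 27 against 208 summed counts gave a ratio of 9.52 (counting interval 6.35 to 14.8). Both calls held with each library left out in turn, at an edgeR adjusted p of at most 0.0298 untreated.

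In controls *Inhbb* did not respond detectably to TGF-β, with overlapping groups and a log2 difference of -0.16 (95% interval -0.83 to 0.52). In KO-labelled libraries, both treated values lay above both untreated ones, and the log2 difference of 2.07 was not called (SE 0.62, edgeR adjusted p = 0.0824), but edgeR without the filter on low counts called it (adjusted p = 0.0453). From 3 to 27 summed counts, the ratio was 4.37 with a counting interval of 1.34 to 22.5. The treated level in KO-labelled libraries still lay below every control library.

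*Fst* encodes follistatin, the chief activin antagonist, and lies on chromosome 13 (mm9 115242470-115249159, minus strand). Untreated controls had 35.0 and 34.8 CPM, and the untreated KO-labelled libraries 3.53 and 2.79 CPM. After TGF-β the levels were 80.8 and 59.7 CPM in controls and 13.5 and 24.6 CPM in KO-labelled libraries. Hence the treated KO-labelled libraries remained below the untreated controls. *Fst* was called lower in KO-labelled libraries untreated (log2 difference -3.49, SE 0.35, edgeR adjusted p = 0.00169) and treated (-1.88, SE 0.28, edgeR adjusted p = 0.00395), the latter a 3.68-fold difference (95% interval 2.40 to 5.65). Both calls held with each library left out.

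*Fst* also rose after TGF-β, by 1.01 on the log2 scale in controls (SE 0.27, edgeR adjusted p = 0.0477) and by 2.62 in KO-labelled libraries (SE 0.35, edgeR adjusted p = 0.00330). These are 2.01-fold and 6.14-fold changes. The call in controls was close to the threshold, and it was lost without untreated control replicate 1 (edgeR adjusted p = 0.239) or 2 (0.193), without treated control replicate 1 (0.122), and without untreated KO replicate 1 (0.0853) or 2 (0.0856). It was also lost with the replicate number as a block (edgeR adjusted p = 0.0748). In KO-labelled libraries, the call was lost without untreated KO replicate 2 (edgeR adjusted p = 0.0672).

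**Figure D2:**
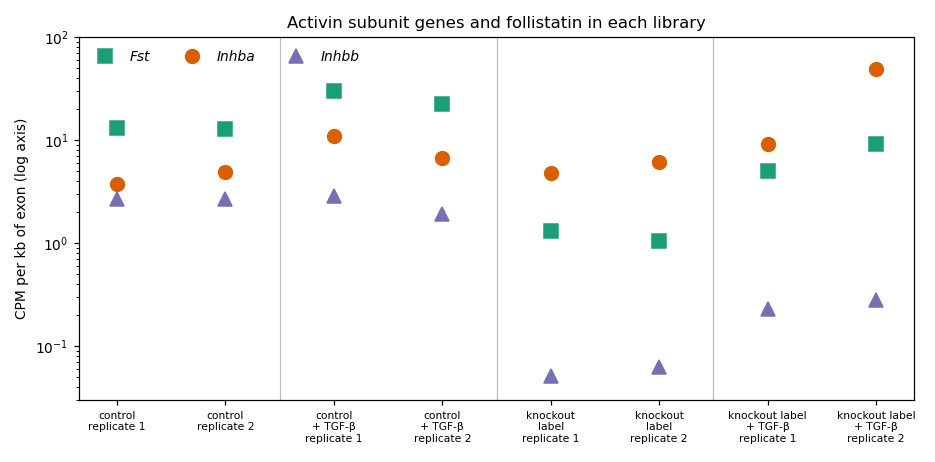
*Fst*, *Inhba* and *Inhbb* in each of the 8 libraries, in CPM per kb of exon on a log axis, with vertical lines between the 4 groups. In the 4 control libraries *Fst* is the highest of the 3 genes, whereas in the 4 KO-labelled libraries *Inhba* is above *Fst* and *Inhbb* is lowest.

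Set against each other within a library, *Inhba* and *Fst* changed places between the genotypes, while *Inhbb* lay below both in each library. In CPM per kb of exon, the scale on which genes can be compared, untreated controls had 13.0 of *Fst*, 4.35 of *Inhba* and 2.68 of *Inhbb* (means of 2 libraries). The untreated KO-labelled libraries had 1.18, 5.45 and 0.0571 in the same order. Per kb, *Inhba* stood at 1.42 and 1.83 times *Inhbb* in the untreated control libraries. The untreated KO-labelled libraries had 43 and 91 counts of *Inhba* against 1 and 2 of *Inhbb*, too few of the latter for a ratio. After TGF-β the ratios per kb were 3.79 and 3.49 in controls and 40.3 and 175 in KO-labelled libraries. *Fst* stood at 2.63 to 3.45 times *Inhba* per kb over the 4 control libraries and at 0.170 to 0.544 times over the 4 KO-labelled libraries. The ranges of the genotypes did not overlap on this last ratio, which follows from the counts of *Fst* already described.

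The other antagonists were scarce. *Fstl3*, which encodes a follistatin-like binder of activins (mm9 chromosome 10, 79240017-79245375, plus strand), had 4 counts in all, in 3 of the 8 libraries. *Nog* encodes noggin, a BMP antagonist (mm9 chromosome 11, 89161952-89163873, minus strand). It had 0 and 1 counts in untreated and 9 and 4 in treated controls, and 0 and 0 in untreated and 5 and 1 in treated KO-labelled libraries. The 4 treated libraries thus held 19 of its 20 counts. By summed counts, treated against untreated controls gave 13 against 1, a ratio of 10.6 with a counting interval of 1.60 to 453. Neither gene passed the filter on low counts, and treated libraries were also the deeper ones. Fitted without the filter, *Bmp7*, *Fstl3* and *Nog* were called in none of the 5 comparisons (edgeR adjusted p of at least 0.320, none at an unadjusted p below 0.05). The highest level of *Nog* in any library was 0.843 CPM.

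*Gdf15*, a stress-induced ligand that signals through GFRAL rather than through BMP or activin receptors, lies on chromosome 8 (mm9 73153292-73156355, minus strand). It had 8.44 and 6.96 CPM in controls and 13.9 and 18.2 CPM in KO-labelled libraries. After TGF-β, 0.937 and 1.38 CPM remained in controls and 1.55 and 0.874 CPM in KO-labelled libraries. The treated libraries of the genotypes overlapped, and all 4 were far below the untreated ones. *Gdf15* fell by 2.73 on the log2 scale in controls (SE 0.40, edgeR adjusted p = 0.00466) and by 3.72 in KO-labelled libraries (SE 0.39, edgeR adjusted p = 0.00101), or 6.64-fold and 13.2-fold. In controls, the call was lost without untreated control replicate 1 (edgeR adjusted p = 0.0510).

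In untreated cells, both KO-labelled libraries had more *Gdf15* than both controls, at 2.09-fold (95% interval 1.24 to 3.53), but the difference was not called (edgeR adjusted p = 0.171). It was called in a fit of only the 4 untreated libraries (edgeR adjusted p = 0.0352). After TGF-β the genotypes differed by 0.07 on the log2 scale (95% interval -0.93 to 1.08). Its receptor gene *Gfral* had no count in any library.

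*Bmpr2* encodes the BMP type II receptor, shared by several BMP ligands, and lies on chromosome 1 (mm9 59821481-59927703, plus strand). It had 49.7 and 59.2 CPM in controls and 55.3 and 58.9 CPM in KO-labelled libraries. After TGF-β it had 103 and 132 CPM in controls and 139 and 136 CPM in KO-labelled libraries. All 4 treated libraries were well above the untreated ones, and the untreated genotypes overlapped. *Bmpr2* rose by 1.11 in controls (SE 0.17, edgeR adjusted p = 0.00505) and by 1.27 in KO-labelled libraries (SE 0.17, edgeR adjusted p = 0.00314) on the log2 scale, or 2.16-fold and 2.41-fold. These calls were lost without untreated control replicate 1 (edgeR adjusted p = 0.0799) and without untreated KO replicate 1 (edgeR adjusted p = 0.0541), respectively. Between genotypes the log2 difference was 0.07 untreated (95% interval -0.31 to 0.45) and 0.23 treated (-0.14 to 0.59).

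**Figure D3:**
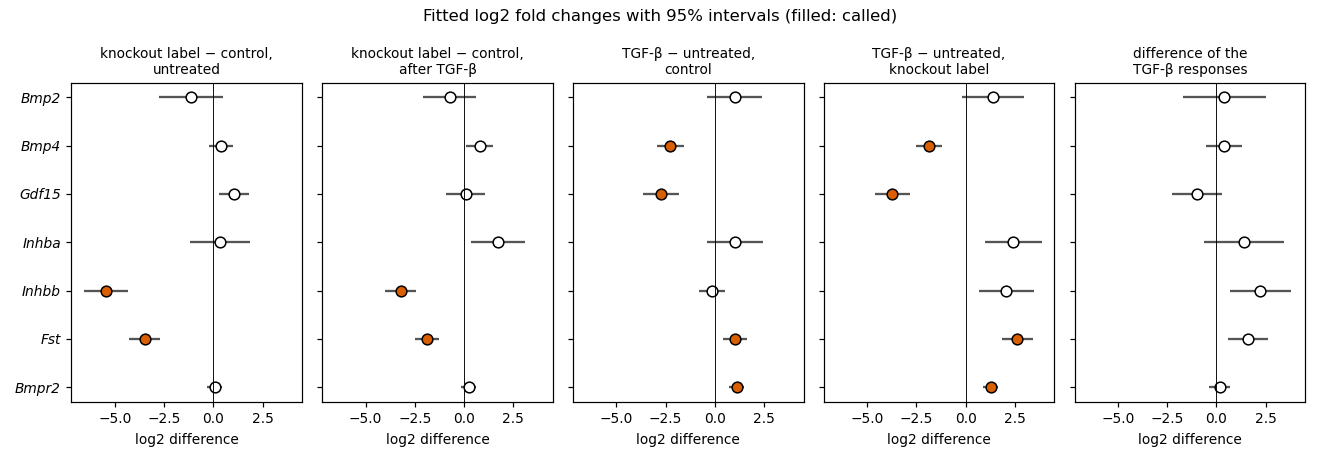
Fitted log2 differences of the 7 tested genes in the 5 comparisons, with 95% intervals as bars and called differences filled. *Inhbb* and *Fst* are called between genotypes, *Bmp4*, *Gdf15*, *Fst* and *Bmpr2* are called after TGF-β in both genotypes, and no gene is called for the difference of the responses.

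Whether the response to TGF-β differed between genotypes was tested as an interaction. None of the 7 genes was called (0 of 7, against 0 of 13028 genes tested by edgeR, with 1134 genes at an unadjusted p below 0.05), and DESeq2 called 25 genes, none of them a member. Without the filter on low counts edgeR called 211 genes (1.03% of 20463), among them *Inhba* (1.45, edgeR adjusted p = 0.0125) and *Fst* (1.67, edgeR adjusted p = 0.00193). At an unadjusted p below 0.05 stood *Fst*, whose log2 response was 1.61 higher in KO-labelled libraries (95% interval 0.61 to 2.61, edgeR adjusted p = 0.445), and *Inhbb*, at 2.23 higher (0.66 to 3.79, edgeR adjusted p = 0.474). Both are the genes that were low in untreated KO-labelled libraries. For *Inhba* the difference of 1.39 had a wide interval (-0.64 to 3.41), and without treated KO replicate 2 it was -0.23. The difference for *Bmp4* was 0.39 (95% interval -0.51 to 1.30) and for *Bmpr2* 0.16 (-0.37 to 0.68). *Gdf15* had a difference of -0.99 (-2.26 to 0.28) and *Bmp2* one of 0.39 (-1.71 to 2.49). These intervals bound how far the responses could differ, and they do not show that the responses were alike.

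In order of level per kb of exon, *Bmpr2* ranked highest of the 10 genes in all 4 groups. In untreated controls it was followed by *Fst*, *Bmp4*, *Inhba*, *Gdf15*, *Inhbb* and *Bmp2*, with mean levels from 15.5 for *Bmpr2* to 1.59 CPM per kb for *Bmp2*; among neighbours in this order, the values of *Inhba* and *Gdf15* overlapped. In untreated KO-labelled libraries, *Bmp4* ranked next to *Bmpr2*, at 11.9 against 16.3 CPM per kb, followed by *Gdf15*, *Inhba*, *Fst*, *Bmp2* and *Inhbb*. Treated control cells had *Fst* at 26.1 CPM per kb, overlapping *Bmpr2* at 33.5, and *Bmp2*, *Inhbb* and *Bmp4* overlapped between 3.19 and 1.90. In treated KO-labelled libraries, *Inhba* at 29.2 CPM per kb overlapped *Bmpr2* at 39.2, *Fst* followed at 7.10, and *Bmp4* and *Bmp2* overlapped at 3.25 and 1.91. *Gdf15* was above *Inhba* and *Fst* in the untreated KO-labelled libraries, at 8.67 CPM per kb, and below all tested genes but *Inhbb* in the treated ones, at 0.654.

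Across the 8 libraries, *Bmp4* and *Gdf15* varied together (Pearson r of log2 CPM 0.92), as did *Inhbb* and *Fst* (0.92), while *Gdf15* and *Bmpr2* varied in opposite directions (-0.91). These are descriptions over 8 libraries of 4 groups, so they rest on the same group differences given above. Among 12551 genes, the pattern most like that of *Bmp4* was shown by *Nek6* (0.985), and that most like *Gdf15* by *Fanca* (0.991) and *Sh3bp4* (0.978). The closest genes to *Inhbb* were *Serpina1b* (0.993) and *Dennd1a* (0.986), and to *Fst* *Bnc1* (0.982) and *Ufm1* (0.980). *Bmpr2* was closest to *Itgb1* (0.994), an integrin subunit gene, and *Tgfbr1* (0.992), the gene of the type I TGF-β receptor.

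Other genes of the pathway were described from lists by role. Of 24 other BMP, GDF and activin ligands, 3 were tested and none was called in any comparison by edgeR, with 1 at an unadjusted p below 0.05, after TGF-β in KO-labelled libraries. Of 17 receptors and co-receptors, 8 were tested. *Acvr1*, a type I receptor for BMPs, rose with TGF-β like *Bmpr2*, by 2.38 in controls (SE 0.20, edgeR adjusted p = 0.000507) and 2.30 in KO-labelled libraries (SE 0.20, edgeR adjusted p = 0.000445) on the log2 scale, and *Neo1*, a receptor for co-receptors of BMPs, was 0.66 higher between treated genotypes (edgeR adjusted p = 0.0193; 0.101 at most under an alternative, the call being lost without treated KO replicate 2 and with 4 libraries alone). The median of the 8 receptors after TGF-β was -0.20 in controls and 0.20 in KO-labelled libraries, against 0.02 and 0 over all genes tested. Of 27 other antagonists and modulators, 8 were tested. *Nbl1*, a secreted BMP antagonist, was higher in KO-labelled libraries by 1.79 untreated (edgeR adjusted p = 0.0443), where 1.03% of all genes were called higher, and by 1.76 treated (edgeR adjusted p = 0.0112), opposite in direction to *Fst*. The untreated call of *Nbl1* held in 4 of 8 fits with a library left out, being lost without any 1 of the untreated libraries. It was also lost with the replicate block and on thinned counts. The treated call held in 7 of 8, being lost without treated KO replicate 2, and was also lost with 4 libraries alone. In the same list, mean *Grem1* was 0.133 CPM in KO-labelled libraries against 1.15 in controls untreated, and 0.0795 against 0.809 treated. *Grem1* was not called and lay near the level of 3 counts. Of the 8 tested, 6 had positive values between genotypes in each condition. In turn, *Bmp1*, a protease that cleaves the BMP antagonist chordin, rose by 0.69 after TGF-β in KO-labelled libraries (edgeR adjusted p = 0.0407). This call held in 3 of 8 fits with a library left out and was also lost with the replicate block.

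**Figure D4:**
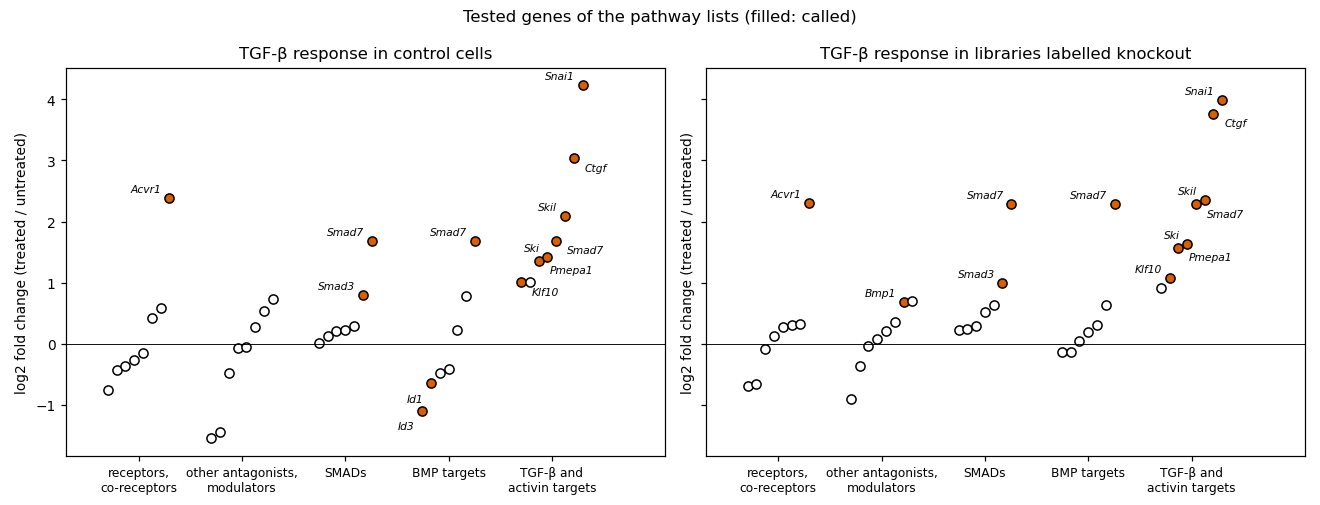
Log2 fold change after TGF-β of the tested genes of 5 pathway lists, in controls (left) and KO-labelled libraries (right); each point is a gene, filled where called, and *Smad7* belongs to 3 lists. Of the 8 tested targets of TGF-β and activin, 7 are filled in each panel, all above 0, while the filled BMP targets below 0, *Id1* and *Id3*, are in the left panel.

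Among 7 tested SMAD genes, *Smad7*, the inhibitory SMAD, rose by 1.69 in controls and 2.28 in KO-labelled libraries (edgeR adjusted p = 0.0151 and 0.00449), and *Smad3* rose by 0.80 and 0.99 (edgeR adjusted p = 0.0341 and 0.0171). With a library left out, the calls of *Smad7* held in 6 of 8 fits in each genotype, being lost without either untreated library of that genotype. Those of *Smad3* held in 3 of 8 in controls and 5 of 8 in KO-labelled libraries. The call of *Smad3* in controls was also lost with the replicate block and in a fit of the 4 control libraries alone. Of 14 BMP targets, 7 were tested. *Id1* and *Id3*, early targets of BMP signalling, fell with TGF-β in controls, where *Bmp4* also fell, by 0.65 and 1.10 (edgeR adjusted p = 0.0480 for each). Each of these calls held in 3 of 8 fits with a library left out (edgeR adjusted p of at most 0.292 for *Id1* and 0.328 for *Id3*), both were lost in a fit of the 4 control libraries alone, and that of *Id1* also with the replicate block and thinned counts. In KO-labelled libraries, where *Bmp4* fell too, their values were 0.31 and 0.20 and were not called. A link between the level of *Bmp4* and that of *Id1* or *Id3* was not tested. The difference of the responses was 0.96 for *Id1* and 1.30 for *Id3*, and neither was called (edgeR adjusted p = 0.444 and 0.495). *Id2* was lower in KO-labelled libraries untreated (log2 difference -1.28, edgeR adjusted p = 0.0195) and treated (-0.82, edgeR adjusted p = 0.0290). These calls held in 4 and 3 of 8 fits with a library left out. The treated call was also lost in a fit of the 4 treated libraries alone.

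Of 9 targets of TGF-β and activin, 8 were tested and 7 rose after TGF-β in each genotype, where 4.69% and 4.25% of all genes were called higher. Their median was 1.55 in controls and 1.95 in KO-labelled libraries. *Snai1* rose by 4.23 and 3.99, *Ctgf* by 3.03 and 3.77, and *Skil* by 2.09 and 2.34 in controls and KO-labelled libraries, each at an edgeR adjusted p of at most 0.000798, and these calls held in 8 of 8 fits with a library left out. The other four called were *Smad7*, *Ski* and, named after their values were seen, *Pmepa1* and *Klf10*. Between treated genotypes, *Snai1*, *Ski* and *Pmepa1* were called higher in KO-labelled libraries, by 0.79, 0.59 and 0.94, against 8.47% of all genes called higher. These calls held in 1, 3 and 7 of 8 fits with a library left out (edgeR adjusted p of at most 0.227, 0.130 and 0.0587), and each was lost in a fit of the 4 treated libraries alone. That of *Snai1* was also lost with DESeq2, the replicate block and thinned counts. Of 8 regulators of *Gdf15* in stress, all were tested, and *Egr1* alone was called. It fell by 3.10 after TGF-β in controls (SE 0.67, edgeR adjusted p = 0.0238), where *Gdf15* fell. The call of *Egr1* held in 5 of 8 fits with a library left out and was lost on thinned counts. Of the 8 values after TGF-β, 4 were positive in controls and 6 in KO-labelled libraries. Mean *Atf3*, not called, went from 15.6 to 57.3 CPM in controls and from 12.3 to 50.0 CPM in KO-labelled libraries. A link between *Egr1* and *Gdf15* was not tested. In KO-labelled libraries, where *Gdf15* fell as well, *Egr1* had a value of -1.18 and was not called (edgeR adjusted p = 0.298). Against the medians of 0.02 and 0 over all genes, the median response in controls and KO-labelled libraries was -1.26 and -1.54 for the 3 other ligands tested, -0.06 and 0.14 for the 8 other antagonists tested, 0.23 and 0.52 for the SMAD genes, -0.40 and 0.20 for the BMP targets, and 0.09 and 0.60 for the regulators of *Gdf15*.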

How the data were processed

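The deposited values of the 8 libraries are raw counts, in whole numbers and not normalized by the authors. Per the paper's methods, reads were aligned with subjunc to mm10 and mm9 and duplicates were removed; the labels' processing notes name HISAT2, limma and mm10. The sources also differ on the library kit (stranded mRNA in the paper, stranded total RNA in the labels), on extraction, sequencer and single or paired ends. The counter and its strand setting are not given in the sources used here, so a gene and its antisense partner cannot be told apart. All 37310 gene identifiers match GENCODE vM1 on NCBIM37 (mm9), the source of gene positions. RefSeq promoters are on GRCm38.p6.

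edgeR 4.0.16 (R 4.3.3) gave CPM with TMM factors and the quasi-likelihood tests, for 13028 genes that passed filterByExpr, in 1 model of the 4 groups without a block. Residual and prior degrees of freedom were 4 and 5.50, and the biological coefficient of variation 0.180. A standard error is the log2 fold change divided by the root of F. CPM per kb uses exon length. Counting intervals are exact 95% intervals of a ratio of summed counts, for counting error only. Similarity used log2 CPM with a prior count of 2, for genes of at least 1 CPM on average; the 2 genes most like each called member are named, and from each list up to 4 called genes (*Pmepa1* and *Klf10* are named beyond it), except that 1 similar gene and 1 listed target gene are not reported here and the latter is left out of its list. The test was run on simulated counts. The results of the members, the counts over all genes and, added after seeing the data, the calls of listed genes were recomputed with DESeq2 1.42.0, with RLE factors, unfiltered, with genes averaging 10 counts or more, with the replicate block, on 4 libraries alone, on thinned counts and with each library left out. Members, lists and tests were chosen with earlier results of these data known. Replicates are biological per the paper, without further detail, and p-values measure the spread between them.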

Additional observations from a re-analysis of the deposited data

How the results depend on the processing

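*Inhbb* and *Fst* were called between genotypes, untreated and treated, under every setting that gave a fit, at an adjusted p of at most 0.0467. Over the 7 tested members in the 5 comparisons, the settings other than a left-out library gave 258 values in the direction and on the side of the threshold reported, 13 that became called, 1 that was lost and 0 that changed sign. Of the 13, 8 came without the filter, 4 were *Inhba* with DESeq2, thinned counts or the exchanged block (after TGF-β in KO-labelled libraries, and for that block also between treated genotypes), and 1 was *Gdf15* between untreated genotypes. With a library left out, the counts were 257, 4, 10 and 9. The 9 sign changes were all of uncalled values, whose ranges with a library left out were as follows. *Bmpr2* between untreated genotypes ranged from -0.056 to 0.20, below 0 without control replicate 1. Between treated genotypes *Bmp2* ranged from -1.86 to 0.29, above 0 without treated control replicate 1, and *Gdf15* from -0.38 to 0.44, below 0 without treated KO replicate 1 and without treated control replicate 1 (-0.17). After TGF-β in controls *Bmp2* ranged from -0.024 to 1.59, below 0 without treated control replicate 1, and *Inhbb* from -0.50 to 0.11, above 0 without treated control replicate 2. For the difference of responses *Bmp2* ranged from -0.70 to 1.45, below 0 without treated KO replicate 2 and without treated control replicate 2 (-0.17), and *Inhba* from -0.23 to 2.17, below 0 without treated KO replicate 2. The causes were not tested. With a library left out, a lone library is assumed to vary like the other groups.

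Without a filter on low counts, 6 members in place of 4 were called after TGF-β in controls (*Bmp2* and *Inhba* added), 7 in place of 4 in KO-labelled libraries (*Bmp2*, *Inhba* and *Inhbb* added), 3 in place of 2 between treated genotypes (*Inhba* added), and 2 in place of 0, *Inhba* and *Fst*, for the difference of responses. With a library left out, members called were 2 untreated and 2 to 3 treated between genotypes, 1 to 4 after TGF-β in controls, 2 to 5 in KO-labelled libraries and 0 for the difference.

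The listed genes had 30 calls; other settings kept 221 of 240 and left-out libraries 179 of 240, with no change of sign.

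Over all genes, calls between untreated genotypes (238) were 428 with DESeq2, 756 without the filter (3.69% of 20463 genes), 804 with 4 libraries alone and 42 to 390 with a library left out. Between treated genotypes (1959) they were 2823 without the filter (13.8%), 410 with 4 libraries alone and 477 to 2762 with a library left out. After TGF-β in controls (1194) they were 2021 without the filter (9.88%), 470 with 4 libraries alone and 145 to 1484 with a library left out, and in KO-labelled libraries (889) 1832 without the filter (8.95%) and 136 to 1381 with a library left out. For the difference (0) they were 25 with DESeq2, 211 without the filter (1.03%) and 0 to 6 with a library left out; a fit of 4 libraries has no such difference.

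Same-numbered libraries did not deviate together in all pairs of groups (r from -0.47 to 0.30 over genes), so the numbers were not taken to pair them. With the replicate block, 150 genes were called between untreated genotypes and, of the members, the call of *Fst* after TGF-β in controls was lost. With the numbers of the treated KO libraries exchanged, a setting chosen after seeing the data, 540, 1954, 1550 and 5 genes were called between untreated genotypes, after TGF-β in controls and in KO-labelled libraries, and for the difference, and no member call was lost.

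Depth limits *Bmp7*, *Fstl3*, *Nog* and the untreated KO level of *Inhbb*. With 2 libraries a group, the values of *Bmp2* after TGF-β, and of *Inhba* after TGF-β in KO-labelled libraries, depend on 1 treated library.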
